A study of Mus musculus with 6 samples.

Results

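The 9 genes described here encode ligands and receptors of chemokine axes that draw lymphocytes: Cxcl12 with its receptor Cxcr4 and scavenger receptor Ackr3, Ccl19 with Ccr7, Cxcl16 with Cxcr6, and the ligand gene Ccl5 and the receptor gene Cxcr3, which are not a classical pair. They were chosen as a named list of 9 among the 32285 genes of the count tables, by their roles and not by a threshold on a measured value, although earlier results of these data were known when the list was drawn up. The measurements were unique molecular identifiers (UMIs), which stand for captured RNA molecules, in DAPI-sorted nuclei from dissected photothrombotic (PT) lesions of the mouse cortex, a focal ischaemia made with light and a photosensitive dye. Adult mice of both sexes were wild type without ADWA11 (Ctrl), wild type and given ADWA11, an antibody against integrin αvβ8, or carried Col1a2(creER); Tgfbr2(flox) (Tgfbr2_cKO), in which a tamoxifen-inducible Cre under the Col1a2 promoter deletes the type II TGFβ receptor in fibroblasts. The paper states that controls of its knockout strains received tamoxifen where relevant. It does not say for these libraries whether Ctrl mice received tamoxifen or a control antibody. All groups were injured, and each was taken at 7 and at 21 days post-injury (dpi), which gave 6 libraries. Mice were in general between 7 and 21 weeks old, and the age of each group was not stated separately. Each library held the pooled nuclei of 1 male and 1 female mouse, so a group is 1 library and no difference below has a replicate or a test. The Cre acts in any cell with an active Col1a2 promoter, and the deletion reaches only nuclei in which it recombined.

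Chemokines are small secreted proteins that bind G protein-coupled receptors and steer leukocytes along their gradients. CXCL12 retains and guides CXCR4-bearing lymphocytes and myeloid cells and is made in quantity by mesenchymal cells of the marrow and other tissues, and ACKR3 binds and removes it without classical G protein signalling. CCL19 is made by reticular fibroblasts of lymphoid organs and guides CCR7-bearing T cells and mature dendritic cells. CXCL16 is a transmembrane chemokine of macrophages and dendritic cells whose receptor CXCR6 marks tissue-resident T cells. CCL5 is released by cytotoxic lymphocytes and myeloid cells, and CXCR3 is the receptor of the interferon-induced ligands CXCL9 and CXCL10.

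By the GRCm38 (mm10) annotation, Cxcl12 (ENSMUSG00000061353) on chromosome 6, 117168535 to 117181367, and Cxcr4 (ENSMUSG00000045382) on chromosome 1, 128588199 to 128592293, with Ackr3 (ENSMUSG00000044337) on chromosome 1, 90203980 to 90216751, were protein-coding loci without an overlapping gene. The others were Ccl19 (ENSMUSG00000071005) on chromosome 4, 42754525 to 42756577, Ccr7 (ENSMUSG00000037944) on chromosome 11, 99144196 to 99155077, Cxcl16 (ENSMUSG00000018920) on chromosome 11, 70453983 to 70459984, Cxcr6 (ENSMUSG00000048521) on chromosome 9, 123806475 to 123811760, Ccl5 (ENSMUSG00000035042) on chromosome 11, 83525778 to 83530518, and Cxcr3 (ENSMUSG00000050232) on chromosome X, 101731535 to 101734269. Ccl19 overlapped 4930578G10Rik, Cxcl16 overlapped Zmynd15 and Cxcr6 overlapped Fyco1, each on the opposite strand. Whether reads were counted by strand is not given in the sources used here. If they were not, reads of these pairs cannot be told apart. Ccl19 has a second, near-identical copy on a scaffold that had 0 UMIs in every library, and its values are uncertain for that reason.

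The libraries held 7205 to 14246 barcodes and 64798965 to 140310354 UMIs, and 61917 of 67360 nuclei passed the filters. Pairs of libraries shared 21 to 61 barcodes, at most 0.513% of the smaller library. Classes were named from marker genes, and each is a class of nuclei that resembles the cell type. The markers bore out fibroblast (13241 nuclei), myeloid (23973), T cell (2047, natural killer and innate lymphoid nuclei included), endothelial (1706) and mural (511) classes, beside neurons, astrocytes, oligodendrocytes and their precursors. The Tgfbr2_cKO library at 7 dpi stood apart. Neurons were 56% of its nuclei and 12.3% of the Tgfbr2_cKO nuclei at 21 dpi, against 0.0806% to 1.64% elsewhere, and it held only 332 fibroblast and 27 T cell nuclei. Library-wide values therefore move with the share of neural tissue, and values within classes are given first. Tgfbr2 itself was read at 315 counts per 1000000 UMIs of the class (CPM) in Ctrl and 233 in Tgfbr2_cKO fibroblasts at 7 dpi, and at 220.0 and 185 at 21 dpi. Reads of the 3′ end can lie outside a deleted exon, so these values check nothing about the deletion.

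Levels are CPM of the non-mitochondrial UMIs of a class in a library, with exact Poisson 95% intervals, and log2 ratios carry exact conditional binomial 95% intervals. Both cover counting error only and say nothing of the spread between mice, and PCR duplicates were already removed by the molecular identifiers. Classes with under 50 nuclei in a library get no ratio. In a class sum, a lower level per nucleus and fewer expressing nuclei cannot be told apart unless the share of nuclei with a UMI is given.

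Fibroblasts, myeloid nuclei and T cells held most UMIs of the members. Fibroblasts held 72.8% of all Cxcl12 UMIs and 48.9% of Ccl19 UMIs. Myeloid nuclei held 67.9% of Cxcl16 and 75.2% of Cxcr4 UMIs. T cells, 3.31% of nuclei, held 51.4% of Ccl5, 61.9% of Cxcr6 and 57.8% of Cxcr3 UMIs. Ccr7 lay mainly in dendritic nuclei, with 59% of its UMIs in 133 mature dendritic-like nuclei. Ackr3 was spread over fibroblasts (54% of UMIs), astrocytes (9.99%) and neurons (10.8%).

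**Figure D1:**
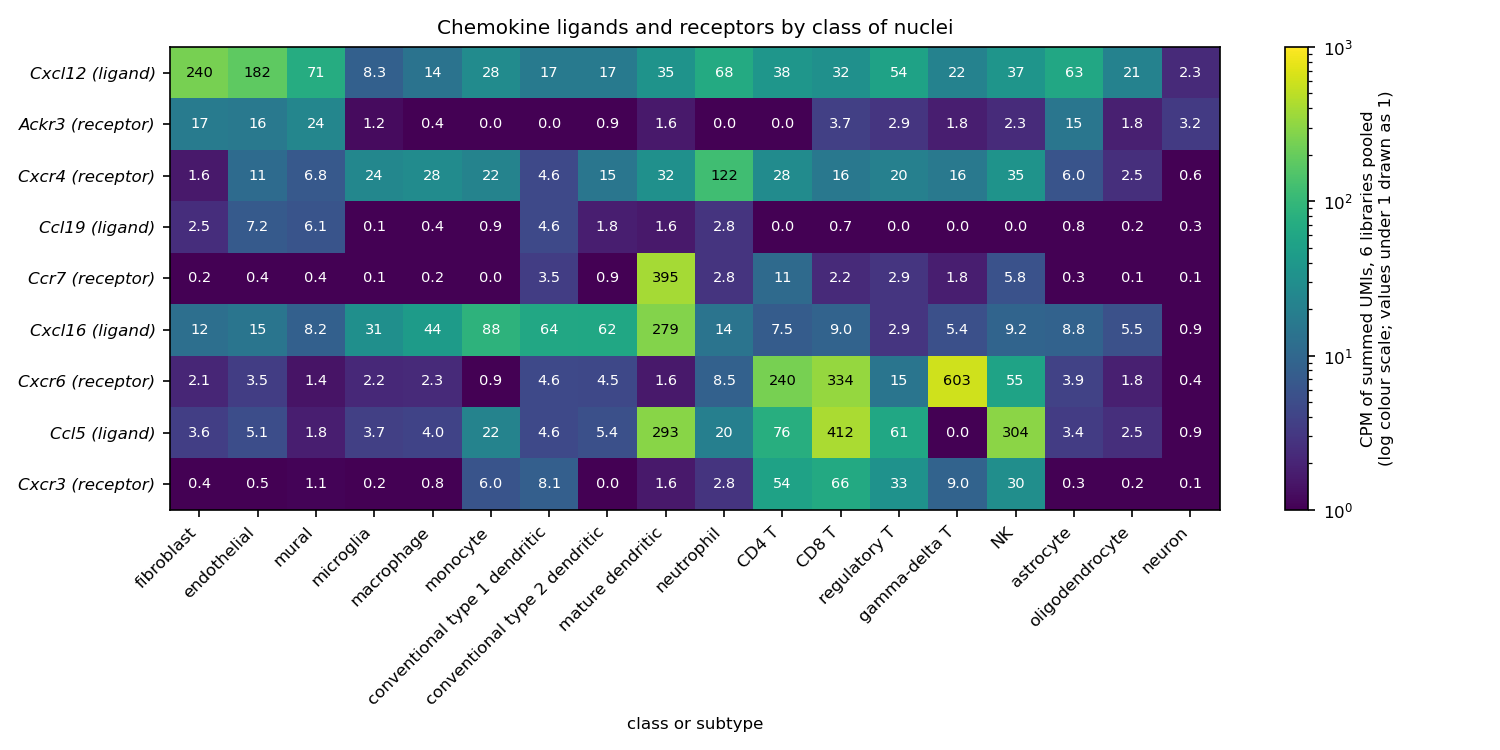
Heat map of the 9 members (rows) over classes of nuclei (columns), each cell the level in CPM over the 6 pooled libraries on a log colour scale. Among the classes plotted, which leave out T cell sub-cluster 5 and weight each library by its nuclei of the class, Cxcl12 is highest in fibroblasts (239.8 CPM) and endothelial nuclei (182), Cxcr6 in γδ T-like nuclei (603), Ccl5 in CD8 T-like nuclei (412) and Ccr7 in mature dendritic-like nuclei (395).

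The CXCL12 axis was examined first in fibroblasts, its main source in these lesions. Fibroblast Cxcl12 was 109 CPM (104 to 114) in Ctrl 7 dpi, 184 (179 to 189) in ADWA11 7 dpi, 147 (131 to 164) in Tgfbr2_cKO 7 dpi, 149 (144 to 153) in Ctrl 21 dpi, 421 (413 to 429.7) in ADWA11 21 dpi and 527 (511 to 543) in Tgfbr2_cKO 21 dpi. Both perturbed libraries were above Ctrl at each time, and the 2 highest levels were those of ADWA11 and Tgfbr2_cKO at 21 dpi. At 21 dpi, Tgfbr2_cKO was 3.55-fold above Ctrl, a log2 ratio of 1.83 (95% interval 1.77 to 1.89), and ADWA11 was 2.84-fold above it, 1.50 (95% interval 1.45 to 1.56). At 7 dpi the log2 ratio was 0.44 (95% interval 0.26 to 0.61) for Tgfbr2_cKO, on 332 nuclei, and 0.76 (95% interval 0.68 to 0.84) for ADWA11. Within Ctrl, 21 dpi was 1.37-fold above 7 dpi, 0.45 (95% interval 0.37 to 0.53). Sub-clusters 6 and 8 each came to over 90% from 1 library. Without both, the ratio of Tgfbr2_cKO at 21 dpi was -0.14 (95% interval -0.26 to -0.02), in the other direction, and that of ADWA11 was 1.40 (95% interval 1.34 to 1.45). Arachnoid-like nuclei, with their low Cxcl12, were 396 and sub-cluster 8 was 319 of the 894 Tgfbr2_cKO fibroblast nuclei at 21 dpi. The comparisons with Ctrl of 1 day share that Ctrl library, so a high or low Ctrl value would move both. The share of nuclei with the transcript was above Ctrl in ADWA11 on both days and in Tgfbr2_cKO at 21 dpi, but not in Tgfbr2_cKO at 7 dpi, where it was near Ctrl after thinning and below it without. After each nucleus was thinned to 2000 UMIs, the share with a Cxcl12 UMI was 18% in Ctrl, 25.1% in ADWA11 and 18.8% in Tgfbr2_cKO at 7 dpi, and 21%, 41% and 38.1% at 21 dpi. Without thinning these shares were 44%, 60.6% and 39.5%, then 45.7%, 67.7% and 61.6%. Thinning left out 90, 49 and 19 shallower fibroblast nuclei at 7 dpi and 211, 69 and 33 at 21 dpi. Neurons, taken as a background class, had a thinned share of 0.277% in Tgfbr2_cKO at 7 dpi, where their median depth was 15725 UMIs against 5710 in fibroblasts. It was 12.3% in Ctrl at 21 dpi, with median depths of 1421 and 6677 UMIs. Most of the 192 neuron nuclei of that library were shallower than 2000 UMIs and left out. Whether some neurons carry the transcript was not tested.

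**Figure D2:**
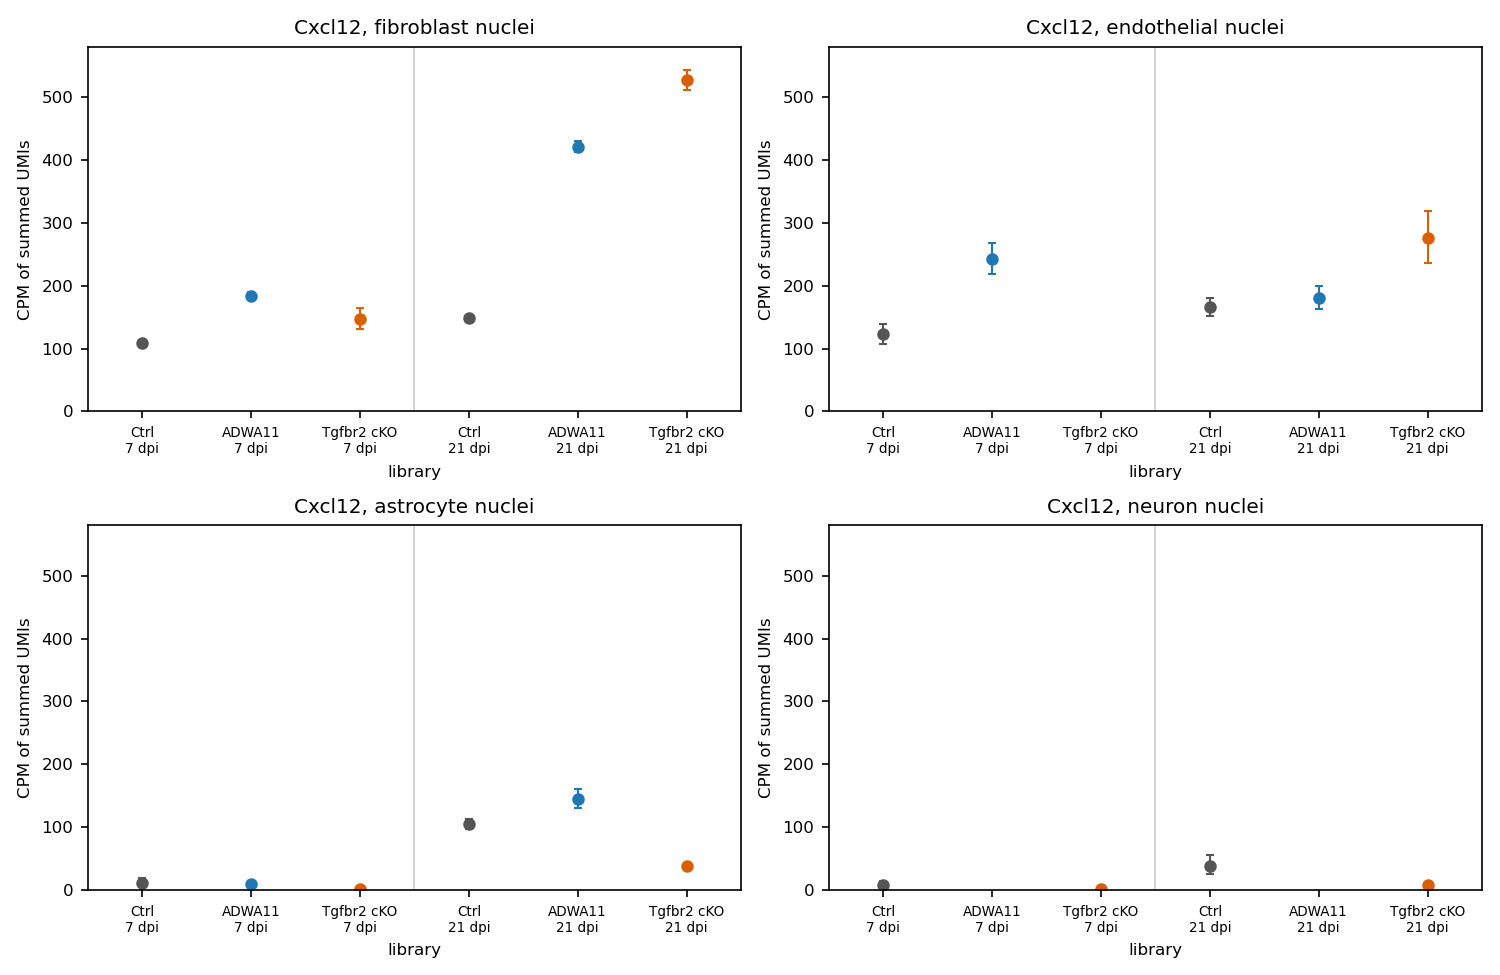
Cxcl12 level in CPM (linear axis) in fibroblast, endothelial, astrocyte and neuron nuclei, with 1 point per library and exact Poisson 95% intervals as bars. In fibroblasts ADWA11 and Tgfbr2_cKO lie at 421 and 527 CPM at 21 dpi, above Ctrl at 149, and classes with under 50 nuclei in a library have no point.

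Fibroblasts in these lesions form several transcriptional states, and the higher class sums were not shared by every one of them. The largest sub-cluster, number 0 (4562 nuclei, led by the transporter genes Slc47a2 and Slc47a1), stayed unnamed. Its Cxcl12 level was 94.6 CPM in Ctrl and 139 in ADWA11 at 7 dpi. At 21 dpi it was 184 in Ctrl, 489 in ADWA11 and 334 in Tgfbr2_cKO. The log2 ratios to Ctrl at 21 dpi were 1.41 (95% interval 1.35 to 1.48) and 0.86 (95% interval 0.68 to 1.04). Sub-cluster 8, led by Gabrg3, Ebf3 and the growth factor gene Fgf10, held 341 nuclei, 93.5% of them from Tgfbr2_cKO at 21 dpi. It reached 1061 (1027 to 1097) CPM there, from 3509 UMIs in 319 nuclei, which was 64% of all Cxcl12 UMIs in that library. A sub-cluster that lies almost wholly in 1 library may be that library and not a cell state.

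Arachnoid-like nuclei, with the barrier-layer genes Ptgds and Slc6a20a among their leading genes, were low in Cxcl12. Their Cxcl12 was 84.1 CPM in Ctrl and 105 in ADWA11 at 7 dpi, and 73.5, 78.5 and 83.4 in Ctrl, ADWA11 and Tgfbr2_cKO at 21 dpi. The 36 such nuclei of Tgfbr2_cKO at 7 dpi, too few for a ratio with an interval, were at 47.6 (23.8 to 85.2). At 21 dpi the log2 ratios were 0.10 (95% interval -0.17 to 0.36) for ADWA11 and 0.18 (95% interval -0.06 to 0.43) for Tgfbr2_cKO. Sub-cluster 4, led by the laminin genes Lama1 and Lamc3 with Wnt4, had pial and arachnoid markers in equal number and stayed unnamed. Its level was 181, 211 and 111 CPM in Ctrl, ADWA11 and Tgfbr2_cKO at 7 dpi and 237, 453 and 215 at 21 dpi. Here Tgfbr2_cKO lay below Ctrl at 7 dpi, by -0.70 (95% interval -1.07 to -0.35), and did not separate from it at 21 dpi, -0.14 (95% interval -0.46 to 0.18). ADWA11 at 21 dpi lay above, by 0.94 (95% interval 0.71 to 1.17).

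Myofibroblast-like nuclei, the contractile matrix-depositing state, were mostly nuclei of 7 dpi. Their Cxcl12 was 97.7 CPM in Ctrl, 219 in ADWA11 and 179 in Tgfbr2_cKO at 7 dpi, and 229.9 in the 67 such nuclei of Ctrl at 21 dpi. The log2 ratios to Ctrl at 7 dpi were 1.16 (95% interval 1.05 to 1.27) for ADWA11 and 0.88 (95% interval 0.64 to 1.11) for Tgfbr2_cKO. Sub-cluster 7, led by Tnn and Runx3, was at 51.4 CPM in Ctrl and 138 in ADWA11 at 7 dpi, a log2 ratio of 1.43 (95% interval 1.01 to 1.84), and at 92.9 and 118 at 21 dpi, 0.34 (95% interval 0.060 to 0.63). Sub-cluster 6, led by Frmpd2 and Clstn2 and 94.1% from Ctrl at 21 dpi, was at 117 CPM there.

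Because the make-up of the class differed between libraries, the ratio was also computed with the sub-cluster shares held equal in both. It became 0.60 for Tgfbr2_cKO at 21 dpi, over 3 sub-clusters that held 57.8% of the Tgfbr2_cKO fibroblast UMIs and left sub-cluster 8 out, against 1.83 for the class as it stood. For ADWA11 at 21 dpi it was 1.22, for ADWA11 at 7 dpi 0.83, for Tgfbr2_cKO at 7 dpi 0.29 and for Ctrl at 21 against 7 dpi 0.83. All 5 stayed above 0. These ratios took in sub-clusters of 20 or more nuclei in both libraries. For Tgfbr2_cKO at 7 dpi, 2 of the 4 sub-clusters used were higher than in Ctrl, myofibroblast-like nuclei and sub-cluster 0 (21 nuclei), and 2 were lower, arachnoid-like nuclei and sub-cluster 4.

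**Figure D3:**
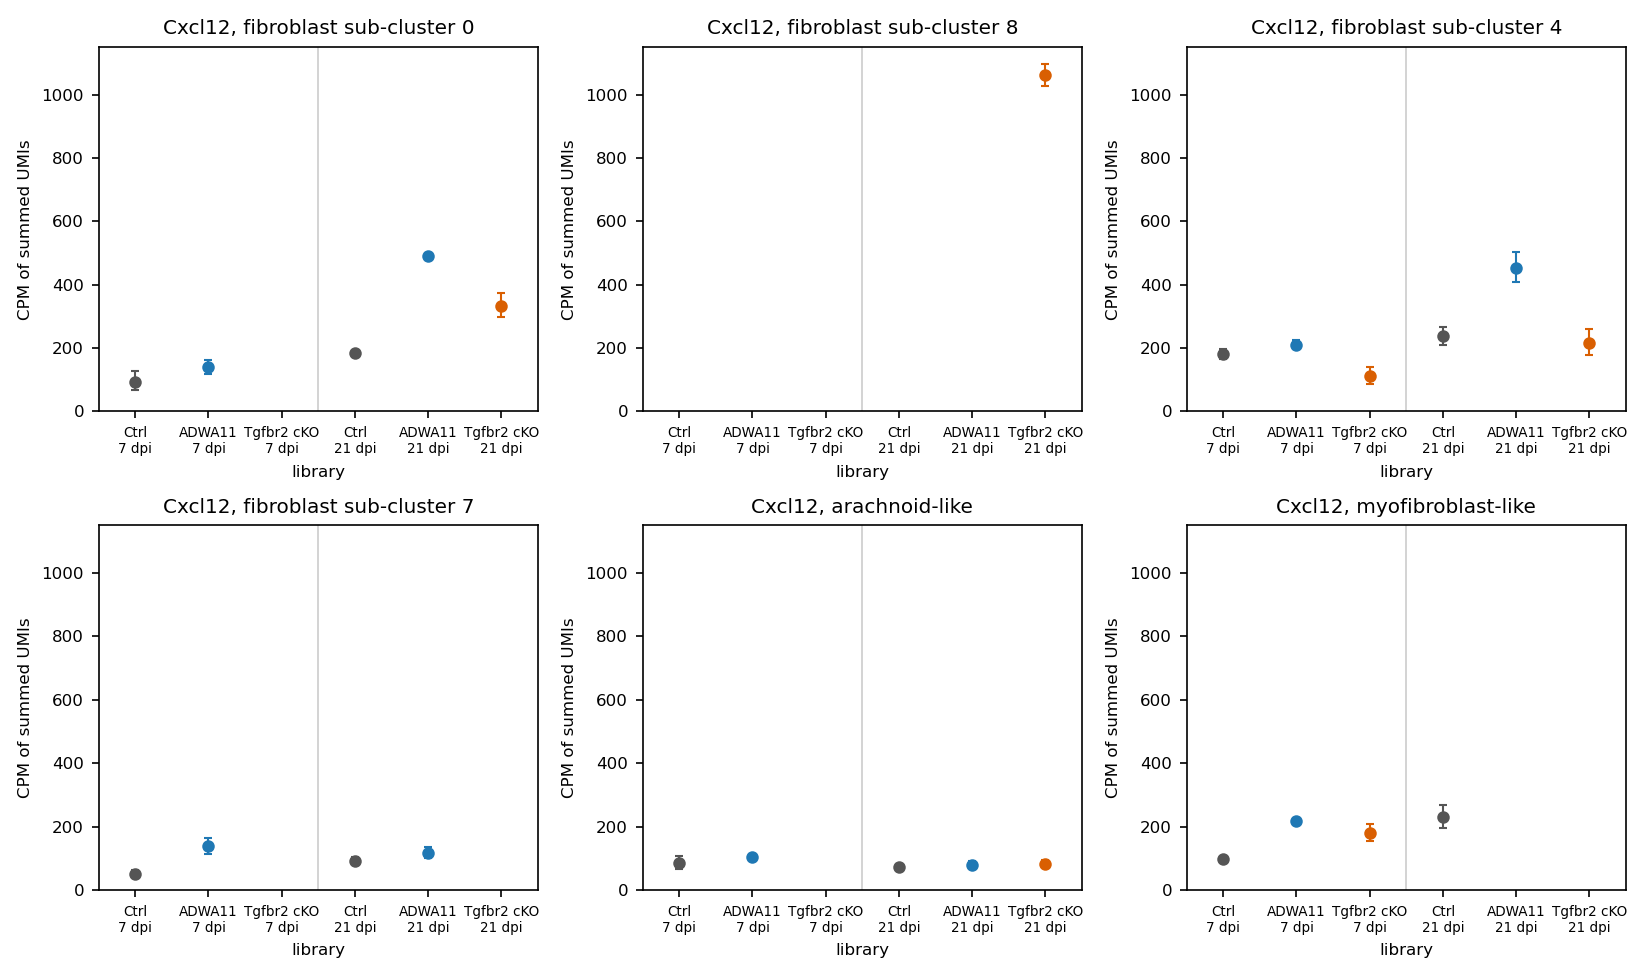
Cxcl12 level in CPM (linear axis) in 6 groups of fibroblast nuclei, with 1 point per library of 50 or more nuclei and exact Poisson 95% intervals as bars. Sub-cluster 8 of Tgfbr2_cKO at 21 dpi is the highest point at 1061 CPM, whereas the arachnoid-like nuclei lie between 73.5 and 105 CPM.

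Vascular nuclei carried Cxcl12 too, endothelial nuclei above fibroblasts in Ctrl and ADWA11 at 7 dpi and in Ctrl at 21 dpi and below them in the perturbed libraries of 21 dpi, and mural nuclei below fibroblasts in the 5 libraries compared. Endothelial Cxcl12 was 123 CPM in Ctrl and 242 in ADWA11 at 7 dpi, and 166, 181 and 275 in Ctrl, ADWA11 and Tgfbr2_cKO at 21 dpi. The log2 ratio to Ctrl was 0.98 (95% interval 0.74 to 1.22) for ADWA11 at 7 dpi, 0.73 (95% interval 0.48 to 0.98) for Tgfbr2_cKO at 21 dpi and 0.12 (95% interval -0.07 to 0.32) for ADWA11 at 21 dpi, whose interval includes 0. The Tgfbr2_cKO value rested on few of its 131 nuclei, and without the 5 nuclei richest in Cxcl12 in each library it was -0.07 (95% interval -0.42 to 0.26). Mural nuclei, the pericytes and smooth muscle of vessel walls, were at 9.01 and 52.4 CPM in Ctrl and ADWA11 at 7 dpi and at 126, 115 and 65.8 in Ctrl, ADWA11 and Tgfbr2_cKO at 21 dpi. Astrocyte Cxcl12 was 11, 8.85 and 2.25 CPM in Ctrl, ADWA11 and Tgfbr2_cKO at 7 dpi and 105, 145 and 38.5 at 21 dpi. The astrocyte log2 ratio of Ctrl at 21 to 7 dpi was 3.25 (95% interval 2.46 to 4.16). Fibroblast transcripts were read in astrocytes too. The 6 fibroblast markers summed to 548, 385 and 71.2 CPM in astrocytes at 7 dpi and to 998, 812 and 72.3 at 21 dpi, against 6372 in Ctrl fibroblasts at 21 dpi. Their part in the astrocyte Cxcl12 was not tested.

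The order of Cxcl12 levels at 21 dpi differed by library. In Ctrl, endothelial nuclei (166 CPM), fibroblasts (149) and mural nuclei (126) led, followed by astrocytes (105), T cells (23.6) and myeloid nuclei (18.6). The counting intervals of endothelial nuclei, 166 (152 to 181), and of fibroblasts, 149 (144 to 153), did overlap. In ADWA11 and Tgfbr2_cKO, fibroblasts led at 421 and 527 CPM, ahead of endothelial nuclei at 181 and 275. In Tgfbr2_cKO this value included sub-cluster 8, 319 of 894 fibroblast nuclei, which held most Cxcl12 UMIs of that library and came almost wholly from it. Of its other sub-clusters, number 0 lay above the endothelial level, at 334 CPM. Sub-cluster 4, at 215, and arachnoid-like nuclei, at 83.4, lay below it. Over each library as a whole, fibroblasts held 72.5%, 77.1% and 55.5% of Cxcl12 UMIs in Ctrl, ADWA11 and Tgfbr2_cKO at 7 dpi and 62.3%, 76.1% and 76.2% at 21 dpi. Their share of the nuclei was 23.7%, 23.1% and 3.13% in the same order at 7 dpi, then 33.7%, 25.1% and 13.6% in the libraries of 21 dpi. Nuclei that were set aside count in these totals but not as fibroblasts. They were 20.6%, 6.61% and 4.54% of the nuclei of Ctrl, ADWA11 and Tgfbr2_cKO at 21 dpi. Among them were fibroblast sub-clusters 1 and 5, of 3261 and 1310 nuclei, with 66.1% and 33.7% from Ctrl at 21 dpi. The part of the set-aside nuclei in the fibroblast shares was not tested.

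**Figure D4:**
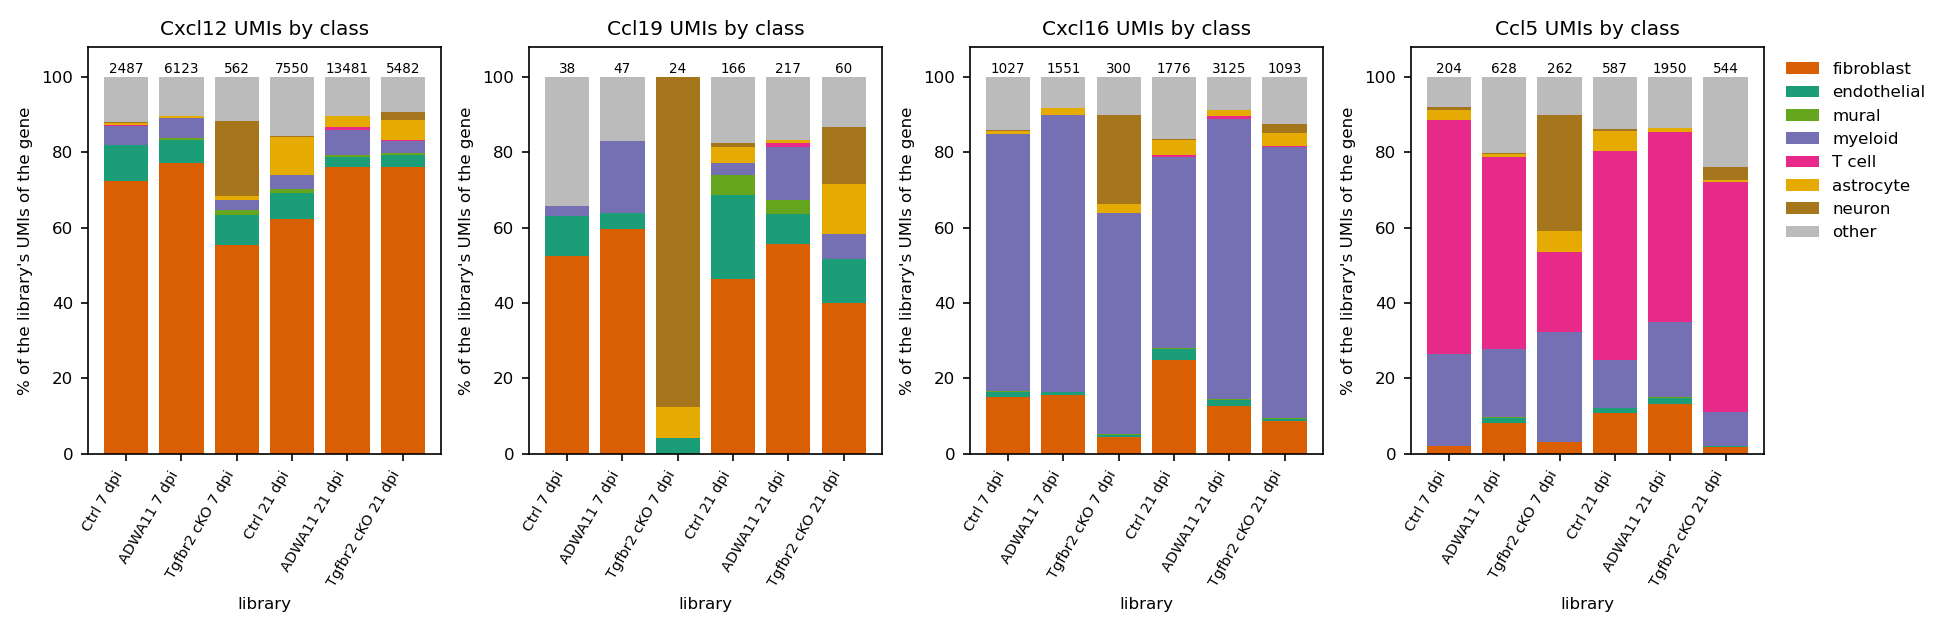
Share of each library's UMIs of the 4 ligands (percent) held by each class of nuclei, as stacked bars that sum to 100%. Fibroblasts hold 55.5% to 77.1% of Cxcl12 UMIs in the 6 libraries, and myeloid nuclei hold 50.7% to 74.3% of Cxcl16 UMIs. Numbers above the bars are the UMIs of the library.

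Cxcr4, the signalling receptor of CXCL12, lay mainly on myeloid nuclei. Myeloid Cxcr4 was 18.2 CPM (16.6 to 20) in Ctrl 7 dpi, 24.7 (23.2 to 26.2) in ADWA11 7 dpi, 12 (9.79 to 14.5) in Tgfbr2_cKO 7 dpi, 34.7 (31.7 to 37.9) in Ctrl 21 dpi, 28.2 (26.5 to 30.1) in ADWA11 21 dpi and 47.4 (43.7 to 51.3) in Tgfbr2_cKO 21 dpi. Levels at 21 dpi were above those at 7 dpi in each condition. Ctrl at 21 dpi was 1.9-fold above Ctrl at 7 dpi, 0.93 (95% interval 0.74 to 1.11). The log2 ratio to Ctrl was -0.61 (95% interval -0.93 to -0.30) for Tgfbr2_cKO and 0.43 (95% interval 0.28 to 0.59) for ADWA11 at 7 dpi, and 0.45 (95% interval 0.28 to 0.62) and -0.30 (95% interval -0.46 to -0.14) at 21 dpi. Directions thus differed between the 2 times for both perturbed groups. Microglia-like nuclei, the resident macrophages of the parenchyma, were at 12 CPM in Ctrl at 7 dpi and 33.4 at 21 dpi, a log2 ratio of 1.48 (95% interval 1.14 to 1.82). Different sub-clusters made up the class in different libraries, and their part in these ratios was not tested. At 7 dpi microglia-like nuclei were 1681 of 2299 myeloid nuclei in Tgfbr2_cKO and 1591 of 4280 in Ctrl. Microglia-like nuclei numbered 1179 in Ctrl but 20 in ADWA11 at 21 dpi, where sub-cluster 1, led by Iigp1 and Fabp4, held 3730 of 6097 myeloid nuclei, and sub-cluster 3 held 2592 of 5944 in ADWA11 at 7 dpi. In these sub-clusters Cxcr4 was at 30.3 and 22.4 CPM.

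T cells carried Cxcr4 at 18.3 CPM in Ctrl and 15.1 in ADWA11 at 7 dpi, and at 29.1, 22.2 and 39.9 in Ctrl, ADWA11 and Tgfbr2_cKO at 21 dpi. None of the 4 log2 ratios among these T cell sums had an interval that left out 0, and the one farthest from 0 was 0.67 (95% interval -0.52 to 1.98) for Ctrl at 21 against 7 dpi. Differences within these intervals were not detectable at this depth, since the T cell sums held 9 to 61 Cxcr4 UMIs. The 265 neutrophil-like nuclei, pooled over libraries, were at 122 CPM. Fibroblasts were between 0 and 2.34 CPM. Endothelial nuclei, which carry Cxcl12, were at 4.24 and 18.5 CPM in Ctrl and ADWA11 at 7 dpi and at 11.4, 12.2 and 7.82 in Ctrl, ADWA11 and Tgfbr2_cKO at 21 dpi. Nuclei with a UMI of both Cxcl12 and Cxcr4 numbered 132 of 13083 in Ctrl at 21 dpi, where 3670 had Cxcl12 and 686 had Cxcr4.

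Ackr3, the scavenger of CXCL12, lay in the same broad class as the ligand. Fibroblast Ackr3 was 7.34 CPM (6.09 to 8.76) in Ctrl 7 dpi, 19.6 (18 to 21.4) in ADWA11 7 dpi, 11.8 (7.62 to 17.4) in Tgfbr2_cKO 7 dpi, 16.9 (15.5 to 18.4) in Ctrl 21 dpi, 23.2 (21.3 to 25.2) in ADWA11 21 dpi and 17.8 (15 to 21) in Tgfbr2_cKO 21 dpi. Ctrl at 7 dpi was the lowest. ADWA11 at 7 dpi was 2.68-fold above it, 1.42 (95% interval 1.13 to 1.72), and Ctrl at 21 dpi was 2.31-fold above it, 1.21 (95% interval 0.92 to 1.50). At 21 dpi the ratio to Ctrl was 0.45 (95% interval 0.28 to 0.63) for ADWA11 and 0.07 (95% interval -0.21 to 0.34) for Tgfbr2_cKO. The make-up of the class differed too, with 115 arachnoid-like nuclei of 1963 fibroblasts in Ctrl and 515 of 2533 in ADWA11 at 7 dpi, and 609 of 4406 in Ctrl at 21 dpi. Within arachnoid-like nuclei Ackr3 was 18.9 CPM in Ctrl and 31 in ADWA11 at 7 dpi, 0.71 (95% interval -0.037 to 1.55), and Ctrl at 21 dpi was above Ctrl at 7 dpi by 1.30 (95% interval 0.56 to 2.13). Within myofibroblast-like nuclei it was 8.02 and 20.1 CPM in Ctrl and ADWA11 at 7 dpi, 1.33 (95% interval 0.95 to 1.72). In sub-clusters 0, 4 and 7 the intervals of both comparisons included 0. Arachnoid-like nuclei, low in Cxcl12 at 21 dpi, had Ackr3 at 46.5, 59.5 and 29.1 CPM in Ctrl, ADWA11 and Tgfbr2_cKO, whereas sub-cluster 8, the highest in Cxcl12, had it at 5.75. Endothelial Ackr3 lay between 12.2 and 22.5 CPM in 5 libraries. Mural Ackr3 was 23.4 CPM in Ctrl and 62.7 in Tgfbr2_cKO at 21 dpi, 1.42 (95% interval 0.40 to 2.46). Astrocytes were between 6.76 CPM in Tgfbr2_cKO at 7 dpi and 20.4 in Ctrl at 21 dpi. Neurons held 74.9% of the Ackr3 UMIs of Tgfbr2_cKO at 7 dpi, the library in which most nuclei were neurons.

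Of the companion genes of this axis, Dpp4 encodes a peptidase that trims CXCL12. It was at 9.99 in Ctrl 7 dpi, 34.2 in ADWA11 7 dpi, 31.5 in Tgfbr2_cKO 7 dpi, 52.4 in Ctrl 21 dpi, 49 in ADWA11 21 dpi and 121 in Tgfbr2_cKO 21 dpi CPM in fibroblasts. Tgfbr2_cKO at 21 dpi was the highest, 1.21 (95% interval 1.09 to 1.32) against Ctrl of that day, and Ctrl at 7 dpi was the lowest.

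The CCL19 to CCR7 axis was sparse, and its values are correspondingly less firm. In all, 552 Ccl19 UMIs were read. Fibroblast Ccl19 was 1.2 CPM in Ctrl and 1.09 in ADWA11 at 7 dpi, with 0 UMIs in the 332 Tgfbr2_cKO nuclei, which allows up to 1.41 CPM when 3 counts are taken as the limit of a count of 0, and 2.43, 4.97 and 3.03 in Ctrl, ADWA11 and Tgfbr2_cKO at 21 dpi. ADWA11 at 21 dpi was 2.04-fold above Ctrl, 1.03 (95% interval 0.61 to 1.46), and Ctrl at 21 dpi was 2.02-fold above Ctrl at 7 dpi, 1.02 (95% interval 0.29 to 1.80). Endothelial nuclei were at 2.12 CPM in Ctrl at 7 dpi and at 11.7, 8.3 and 10.9 in Ctrl, ADWA11 and Tgfbr2_cKO at 21 dpi, and the Ctrl times differed by 2.46 (95% interval 0.99 to 4.41). In mural nuclei, Ccl19 had 0 UMIs in Ctrl and ADWA11 at 7 dpi, which allows up to 4.51 and 5.43 CPM, and 13.2 and 18 CPM in Ctrl and ADWA11 at 21 dpi. In Tgfbr2_cKO at 7 dpi, neurons held 21 of 24 Ccl19 UMIs.

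Ccr7 was a transcript of dendritic cells more than of T cells in these lesions. Mature dendritic-like nuclei, which also had Ccl22 and Il12b among their leading genes, were at 395 CPM over all libraries. Ccr7 was itself among the genes that led this sub-cluster, so this level is a description. Over all dendritic nuclei, Ccr7 was 36.5 CPM in Ctrl and 55.4 in ADWA11 at 7 dpi, and 126 and 137 at 21 dpi. Ctrl at 21 dpi was 3.46-fold above Ctrl at 7 dpi, 1.79 (95% interval 0.97 to 2.65), from 35 and 21 UMIs, and ADWA11 did not separate from Ctrl at 7 dpi, 0.60 (95% interval -0.22 to 1.46), or at 21 dpi, 0.12 (95% interval -0.43 to 0.69). The mature dendritic-like nuclei numbered 11, 29 and 3 of 127, 113 and 21 dendritic nuclei in Ctrl, ADWA11 and Tgfbr2_cKO at 7 dpi. At 21 dpi they numbered 19, 60 and 11 of 79, 244 and 30. The part of this make-up in the Ccr7 ratios of dendritic nuclei was not tested. T cells, whose naive and central memory members classically bear CCR7, had 4.73 to 9.44 CPM in the 5 libraries with 50 or more T cell nuclei, from 4 to 13 UMIs. In Tgfbr2_cKO at 21 dpi, 31 of the 67 Ccr7 UMIs of the library lay in 1 nucleus of a sub-cluster that was set aside. Ackr4, an atypical receptor that removes CCL19, was in fibroblasts at 3.19 to 10.8 CPM.

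The CXCL16 axis lay across classes, with the ligand in myeloid nuclei and the receptor in T cells. Myeloid Cxcl16 was 27.3 CPM (25.3 to 29.4) in Ctrl 7 dpi, 25.5 (24.1 to 27.1) in ADWA11 7 dpi, 19.9 (17 to 23) in Tgfbr2_cKO 7 dpi, 62.8 (58.7 to 67) in Ctrl 21 dpi, 68.4 (65.6 to 71.2) in ADWA11 21 dpi and 61.9 (57.6 to 66.3) in Tgfbr2_cKO 21 dpi. The 3 libraries of 21 dpi lay above the 3 of 7 dpi without overlap, and within a day the conditions lay closer together. Ctrl at 21 dpi was 2.3-fold above Ctrl at 7 dpi, 1.20 (95% interval 1.06 to 1.35). At 7 dpi Tgfbr2_cKO was below Ctrl, -0.46 (95% interval -0.71 to -0.22), and ADWA11 did not separate from it, -0.10 (95% interval -0.23 to 0.04). At 21 dpi the ratios were -0.02 (95% interval -0.16 to 0.12) for Tgfbr2_cKO and 0.12 (95% interval 0.01 to 0.24) for ADWA11. The thinned share of myeloid nuclei with a Cxcl16 UMI was 4.91%, 4.83% and 3.05% at 7 dpi and 11.7%, 12.7% and 11% at 21 dpi, in the order Ctrl, ADWA11 and Tgfbr2_cKO. Without thinning it was 12.5%, 14.4% and 6%, then 21.2%, 27.4% and 24.6%. Thinning left out 393, 229 and 431 shallower myeloid nuclei at 7 dpi and 450, 279 and 182 at 21 dpi. Neurons, taken as a background class, had a thinned share of 0.98% in Ctrl and 0.259% in Tgfbr2_cKO at 7 dpi and of 0.478% in Tgfbr2_cKO at 21 dpi, and 0 of 73 in Ctrl at 21 dpi, which by the same limit of 3 counts allows up to 4.11%. Their median depths were 6237, 15725, 19582 and 1421 UMIs, against 5242, 3318, 5159 and 4161 in the myeloid nuclei of the same libraries. Both microglia-like nuclei, at 15.3 and 51.3 CPM in Ctrl at 7 and 21 dpi, and the other macrophages, at 31.2 and 65.8, had the higher level at 21 dpi, with log2 ratios of 1.74 (95% interval 1.46 to 2.03) and 1.08 (95% interval 0.89 to 1.26). At 7 dpi microglia-like nuclei were 1681 of 2299 myeloid nuclei in Tgfbr2_cKO and 1591 of 4280 in Ctrl. The part of this make-up in the lower Tgfbr2_cKO level of that day was not tested. Dendritic nuclei were the highest myeloid source, at 97.3 and 90.3 CPM in Ctrl and ADWA11 at 7 dpi and 181 and 107 at 21 dpi, and mature dendritic-like nuclei pooled over libraries reached 279 CPM. Fibroblasts were at 9.32 in Ctrl 7 dpi, 9.35 in ADWA11 7 dpi, 6.12 in Tgfbr2_cKO 7 dpi, 13.9 in Ctrl 21 dpi, 16.2 in ADWA11 21 dpi and 11.9 in Tgfbr2_cKO 21 dpi CPM and held 15.1% of the UMIs.

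Cxcr6 was highest in T cells, at 305 CPM over all libraries. Myeloid nuclei were at 2.3 and fibroblasts at 2.1 CPM and, being far more numerous, held 11.5% and 8.14% of its UMIs. T cell Cxcr6 was 372 CPM (320.3 to 430.4) in Ctrl 7 dpi, 252 (215 to 293) in ADWA11 7 dpi, 533 (482 to 589.5) in Ctrl 21 dpi, 184 (169 to 201) in ADWA11 21 dpi and 446 (405 to 490.4) in Tgfbr2_cKO 21 dpi, and 58 UMIs were read in the 27 T cell nuclei of Tgfbr2_cKO at 7 dpi. Of the 5 libraries with 50 or more T cell nuclei, ADWA11 at 21 dpi was the lowest and Ctrl at 21 dpi the highest. ADWA11 was 2.89-fold below Ctrl at 21 dpi, -1.53 (95% interval -1.73 to -1.34), and 1.48-fold below it at 7 dpi, -0.56 (95% interval -0.87 to -0.25). Tgfbr2_cKO at 21 dpi was nearer to Ctrl, -0.26 (95% interval -0.46 to -0.06), and Ctrl at 21 dpi was above Ctrl at 7 dpi, 0.52 (95% interval 0.26 to 0.78). After thinning, 47.7% of Ctrl, 24.2% of ADWA11 and 41.9% of Tgfbr2_cKO T cells had a Cxcr6 UMI at 21 dpi, and 0.548%, 0.493% and 0.697% of fibroblasts did. Without thinning, which left out 129, 380 and 57 T cells, the T cell shares were 50.8%, 25.9% and 47.5%. Median depths were 2196, 2299 and 3103 UMIs in T cells and 6677, 7362 and 7753 in fibroblasts. ADWA11 at 21 dpi had more T cells, however, at 8.59% of nuclei against 2.32% in Ctrl, and its level over all nuclei was 0.26 (95% interval 0.11 to 0.40) relative to Ctrl.

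The make-up of the T cell class moved with this difference. Of the 1066 T cell nuclei of ADWA11 at 21 dpi, 234 were natural killer-like and 204 regulatory T-like, against 28 and 15 of 303 in Ctrl. T cell sub-cluster 5, unnamed and above γδ T-like nuclei in Cxcr6 over all libraries, was 35 nuclei in ADWA11 and 50 in Ctrl. Within ADWA11 at 21 dpi, Cxcr6 was 681 CPM in the 16 γδ T-like nuclei, 316 in CD8 T-like, 259.8 in CD4 T-like, 49.9 in natural killer-like and 13.9 in regulatory T-like nuclei. Within Ctrl at 21 dpi it was 840.4 in the 53 γδ T-like nuclei, 481 in CD8 T-like, 379 in CD4 T-like and 127 in the 28 natural killer-like nuclei, with 0 UMIs in the 15 regulatory T-like nuclei. Subtype levels given over all libraries weight each library by its nuclei of the subtype. Without natural killer and innate lymphoid nuclei the ADWA11 ratio at 21 dpi was -1.41 (95% interval -1.61 to -1.21). Within CD8 T-like nuclei it was -0.61 (95% interval -0.99 to -0.21), from 316 and 481 CPM, and within CD4 T-like nuclei -0.55 (95% interval -1.00 to -0.08), from 259.8 and 379 CPM. The part of the class make-up in the difference was not tested beyond these values.

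Ccl5 was a ligand of the lymphocytes themselves. T cell Ccl5 was 258 CPM (215 to 307) in Ctrl 7 dpi, 483 (431 to 539) in ADWA11 7 dpi, 452 (404 to 504) in Ctrl 21 dpi, 358 (336 to 381) in ADWA11 21 dpi and 349 (313 to 389) in Tgfbr2_cKO 21 dpi. Ctrl at 7 dpi was the lowest of the 5. ADWA11 at 7 dpi was 1.87-fold above it, 0.90 (95% interval 0.60 to 1.21), and Ctrl at 21 dpi 1.75-fold above it, 0.81 (95% interval 0.51 to 1.11). At 21 dpi both perturbed libraries were below Ctrl, ADWA11 by -0.33 (95% interval -0.52 to -0.15) and Tgfbr2_cKO by -0.37 (95% interval -0.60 to -0.15). For ADWA11 this held in nuclei called female, 236 against 555 CPM and -1.23 (95% interval -1.56 to -0.91), but not in those called male, 368 against 326 CPM and 0.18 (95% interval -0.18 to 0.55). Over all libraries Ccl5 was 412 CPM in CD8 T-like, 304 in natural killer-like, 293 in mature dendritic-like and 76.3 in CD4 T-like nuclei. The γδ T-like nuclei had 0 Ccl5 UMIs, which allows up to 5.42 CPM. T cell sub-cluster 5, which stayed unnamed and was led by Igha, Igkc, Xcl1 and Gzmb, was the highest group of T cell nuclei for all 3 members of these axes, with Ccl5 at 1355, Cxcr6 at 702 and Cxcr3 at 203 CPM over its 214 nuclei. Of the marker lists, 5 CD8 T, 2 natural killer and 2 γδ T markers were raised in it, beside 3 plasma cell markers. Igha and Igkc are immunoglobulin genes of plasma cells, and the part of plasma cell transcripts in these levels was not tested. Within CD8 T-like nuclei ADWA11 was above Ctrl at 21 dpi, 0.95 (95% interval 0.48 to 1.46), the other direction than over the whole class. A few nuclei carried much of the transcript. Without the 5 richest nuclei of each library the T cell ratios at 21 dpi were 0.01 for ADWA11, level with Ctrl, and -0.85 for Tgfbr2_cKO, and 1 nucleus of Tgfbr2_cKO at 21 dpi held 85 of that library's 544 Ccl5 UMIs. The 5 richest nuclei held 41.7% of the Ccl5 UMIs of Ctrl at 7 dpi, 23.7% in ADWA11 at 7 dpi and 20.6% in Ctrl at 21 dpi.

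Ccl5 was also read at low level in fibroblasts and over the myeloid class as a whole, in spite of the high level in its mature dendritic-like nuclei. Fibroblasts were at 0.241 in Ctrl 7 dpi, 2.03 in ADWA11 7 dpi, 3.77 in Tgfbr2_cKO 7 dpi, 1.99 in Ctrl 21 dpi, 10.6 in ADWA11 21 dpi and 1.26 in Tgfbr2_cKO 21 dpi CPM, and the 7 T cell markers summed to 13.8, 13.5 and 17.4 CPM in the same nuclei at 7 dpi and to 23, 35.5 and 31 at 21 dpi. The marker sum was highest in ADWA11 at 21 dpi and next in Tgfbr2_cKO at 21 dpi. Fibroblast Ccl5 was highest in ADWA11 at 21 dpi and next in Tgfbr2_cKO at 7 dpi. The part of T cell transcripts in these values was not tested. Myeloid nuclei were at 1.95 in Ctrl 7 dpi, 2.55 in ADWA11 7 dpi, 8.68 in Tgfbr2_cKO 7 dpi, 5.16 in Ctrl 21 dpi, 11.5 in ADWA11 21 dpi and 3.86 in Tgfbr2_cKO 21 dpi CPM. Over all nuclei the ADWA11 level at 21 dpi was 1.65 (95% interval 1.52 to 1.79) relative to Ctrl, beside the higher T cell share.

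Cxcr3, the receptor of the interferon-induced CXCL9 and CXCL10, was likewise on T cells. Its T cell level was 69.2 CPM (47.9 to 96.7) in Ctrl 7 dpi, 61.9 (44.4 to 83.9) in ADWA11 7 dpi, 104 (81.7 to 130.3) in Ctrl 21 dpi, 54.6 (46.2 to 64) in ADWA11 21 dpi and 58.8 (44.4 to 76.3) in Tgfbr2_cKO 21 dpi, and Ctrl at 21 dpi was the highest of the 5. Both perturbed libraries of that day were lower, ADWA11 by -0.93 (95% interval -1.34 to -0.51) and Tgfbr2_cKO by -0.82 (95% interval -1.35 to -0.30), and the Ctrl times differed by 0.59 (95% interval -0.02 to 1.22). CD8 T-like nuclei were at 66 CPM, CD4 T-like at 53.7, regulatory T-like at 33.5 and natural killer-like at 30. At 21 dpi natural killer-like and regulatory T-like nuclei were 234 and 204 of 1066 T cell nuclei in ADWA11. They were 28 and 15 of 303 in Ctrl and 26 and 12 of 284 in Tgfbr2_cKO. T cell sub-cluster 5, the highest for Cxcr3, was 35, 50 and 55 nuclei in the same order. The part of this make-up in the Cxcr3 ratios was not tested. Of the companion genes, Ccr1, another chemokine receptor gene, was highest in neutrophil-like nuclei at 538 CPM.

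The ligands of Cxcr3 were low, and in myeloid nuclei they were highest in different libraries. Myeloid Cxcl9 was 0.43 in Ctrl 7 dpi, 3.38 in ADWA11 7 dpi, 1.13 in Tgfbr2_cKO 7 dpi, 4.53 in Ctrl 21 dpi, 11.5 in ADWA11 21 dpi and 1.26 in Tgfbr2_cKO 21 dpi CPM, highest in ADWA11 at 21 dpi. Myeloid Cxcl10 was 1.02 in Ctrl 7 dpi, 3.61 in ADWA11 7 dpi, 24.2 in Tgfbr2_cKO 7 dpi, 5.37 in Ctrl 21 dpi, 6.36 in ADWA11 21 dpi and 1.5 in Tgfbr2_cKO 21 dpi CPM, highest in Tgfbr2_cKO at 7 dpi. Fibroblast Cxcl10 was 1.62 in Ctrl 7 dpi, 5.22 in ADWA11 7 dpi, 25 in Tgfbr2_cKO 7 dpi, 2.97 in Ctrl 21 dpi, 15.3 in ADWA11 21 dpi and 1.64 in Tgfbr2_cKO 21 dpi CPM, highest in Tgfbr2_cKO at 7 dpi and next in ADWA11 at 21 dpi.

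**Figure D5:**
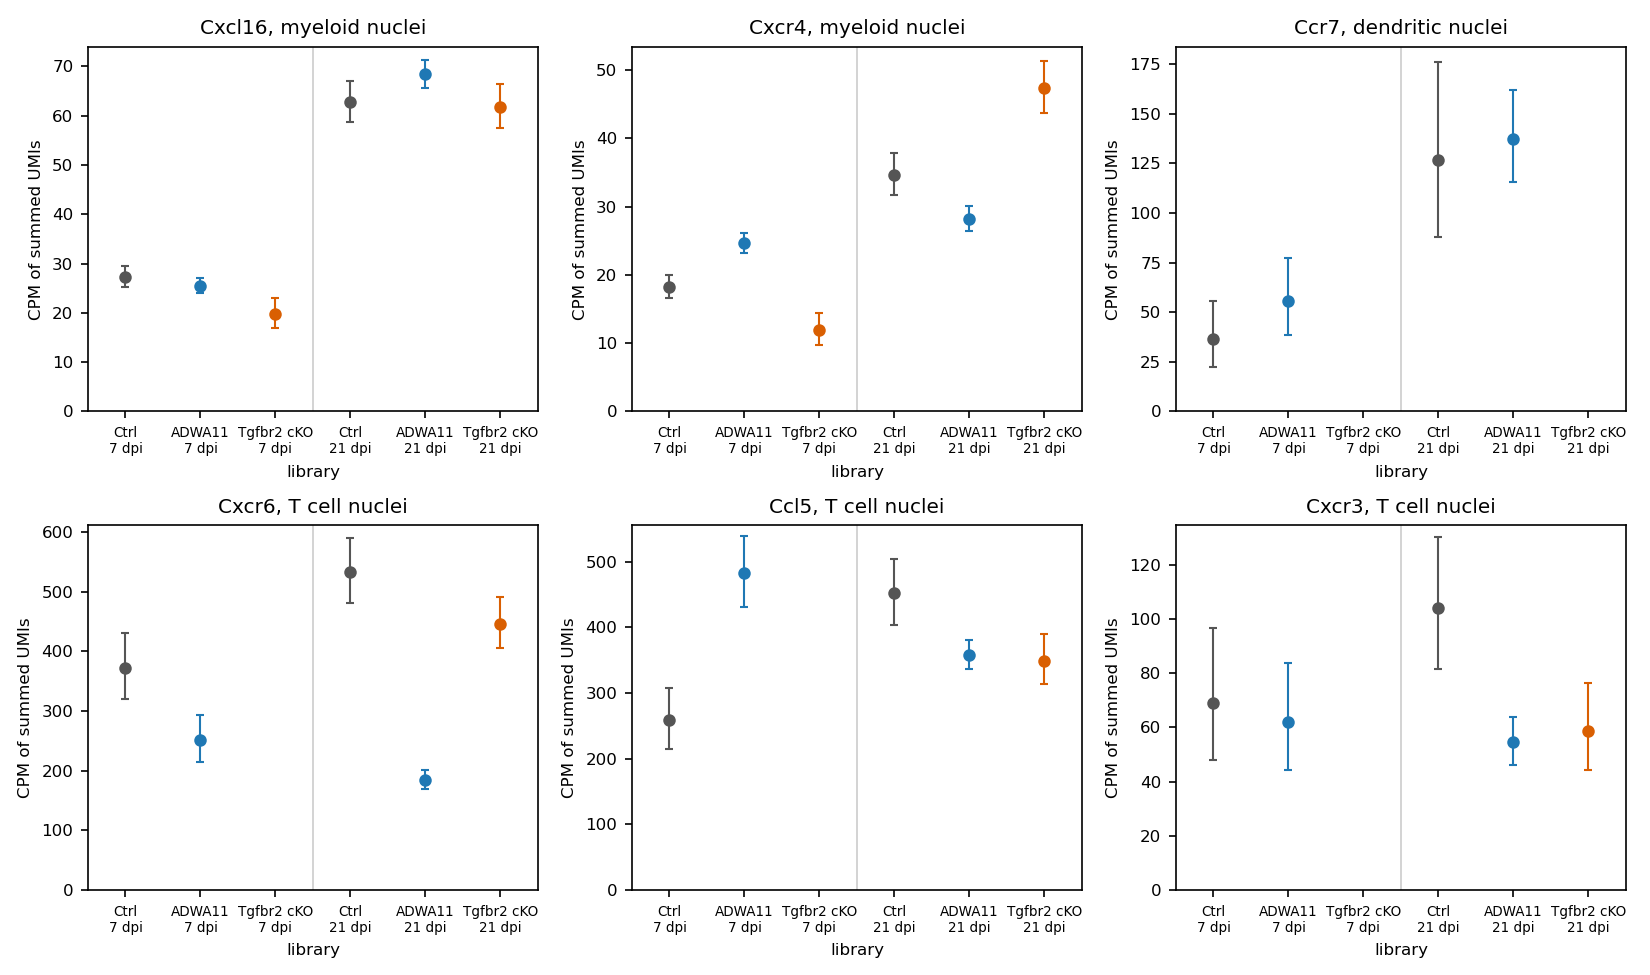
Levels in CPM (linear axis) of Cxcl16 and Cxcr4 in myeloid, Ccr7 in dendritic and Cxcr6, Ccl5 and Cxcr3 in T cell nuclei, with 1 point per library of 50 or more nuclei and exact Poisson 95% intervals as bars. Cxcl16 lies at 61.9 CPM or above in the libraries of 21 dpi and at 27.3 or below in those of 7 dpi, and T cell Cxcr6 is lowest in ADWA11 at 21 dpi among the 5 libraries plotted.

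To read these ratios against the whole table, all genes with 30 or more UMIs in the 2 libraries together were counted as past or short of a 2-fold difference in either direction. The members were listed with earlier results known, so these counts are a description. In fibroblasts, 1 of 7 members counted for Tgfbr2_cKO at 21 dpi was past it, Cxcl12, where 16.3% of 16231 genes were. For ADWA11 at 21 dpi, 4 of 8 were past it, Cxcl12, Ccl19, Ccl5 and Cxcr3, all higher, where 6.66% of all genes were. Ccl5 and Cxcr3 were mainly T cell transcripts, the T cell markers summed to 23 CPM in these Ctrl and 35.5 in these ADWA11 fibroblasts, and T cells were 2.32% and 8.59% of the nuclei. Their part in this count was not tested. For Ctrl at 21 against 7 dpi, 3 of 7 were past it, Ackr3, Ccl19 and Ccl5, all higher, against a background of 19.5%. At 7 dpi, 2 of 7 were past it in ADWA11, Ackr3 and Ccl5, beside 8.76% of all genes, and 0 of 4 in Tgfbr2_cKO, beside 12.1%. The median log2 ratio of the members was 0.96 for ADWA11 at 21 dpi and 0.07 for Tgfbr2_cKO at 21 dpi, where the medians of all genes were 0.02 and -0.01. Members short of 30 UMIs were not counted.

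In myeloid nuclei, 5 of 7 members were past 2-fold for Ctrl at 21 against 7 dpi, Cxcl12, Ccr7, Cxcl16, Cxcr6 and Ccl5, all higher at 21 dpi, beside 12.7% of all genes. Their median log2 ratio was 1.40, and that of all genes 0.08. Over all libraries fibroblasts held most Cxcl12 UMIs and T cells most Cxcr6 and Ccl5 UMIs. Ccl5 was also high in mature dendritic-like nuclei, which belong to the myeloid class. The 6 fibroblast markers summed to 573 CPM in myeloid nuclei of Ctrl at 7 dpi and 921 at 21 dpi. The part of transcripts from other classes in these counts was not tested. For ADWA11 at 21 dpi 3 of 9 were past it, Ccl19, Ccl5 and Cxcr3, all higher, beside 14.4%, and the T cell markers summed to 14.1 CPM in Ctrl and 17.6 in ADWA11 myeloid nuclei of that day. In ADWA11 at 7 dpi it was 2 of 8, Cxcr3 higher and Ackr3 lower, beside 12%, and in Tgfbr2_cKO at 7 dpi 2 of 6, Ccl5 higher and Cxcl12 lower, beside 15.3%. In Tgfbr2_cKO at 21 dpi 0 of 6 were, beside 10.5%.

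In T cells the tables were thinner. 1 of 6 members was past 2-fold in ADWA11 at 21 dpi, Cxcr6, which was lower, beside 9.71% of 9875 genes. The counts were 0 of 5 in Tgfbr2_cKO at 21 dpi beside 6.2%, 0 of 3 in ADWA11 at 7 dpi beside 6.26%, and 0 of 4 for Ctrl at 21 against 7 dpi beside 5.93%. Tgfbr2_cKO at 7 dpi had too few T cells for a ratio. Of the 12 companion genes of the axes, 3 of 8 were past 2-fold in fibroblasts of ADWA11 at 21 dpi, Cxcl9, Cxcl10 and Ccr1, all higher, beside 6.66% of all genes, and 1 of 7 in Tgfbr2_cKO at 21 dpi, Dpp4, which was higher, beside 16.3%. At 7 dpi 3 of 7 were in Tgfbr2_cKO, Cxcl10 and Dpp4 higher and Cxcl9 lower, beside 12.1%, and 2 of 7 in ADWA11, Cxcl10 and Dpp4, both higher, beside 8.76%. For Ctrl at 21 against 7 dpi it was 2 of 7, Dpp4 higher and Cxcl9 lower, beside 19.5%. In myeloid nuclei Cxcl9 and Cxcl10 were past it in 3 comparisons, higher in ADWA11 at 7 dpi (2 of 8, beside 12%) and in Ctrl at 21 against 7 dpi (2 of 8, beside 12.7%) and lower in Tgfbr2_cKO at 21 dpi (2 of 8, beside 10.5%). The other counts in myeloid nuclei were 2 of 8 in ADWA11 at 21 dpi, Cxcl9 and Dpp4, both higher, beside 14.4%, and 2 of 7 in Tgfbr2_cKO at 7 dpi, Cxcl10 higher and Dpp4 lower, beside 15.3%. In T cells none of the 4 companions counted passed it in any of the 4 comparisons.

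Female and male nuclei of a library, told apart by Xist and Y-linked UMIs, give the nearest thing to a value per mouse, with errors of the calls included. Fibroblast Cxcl12 at 21 dpi was 154 CPM in female and 146 in male Ctrl nuclei, 294 and 497 in ADWA11, and 482 and 561 in Tgfbr2_cKO. Both values of each perturbed library lay above both of Ctrl. At 7 dpi they were 91.9 and 120.2 in Ctrl, 189.9 and 184 in ADWA11, and 149.6 and 124 in Tgfbr2_cKO, whose male value was near the male Ctrl value, a log2 ratio of 0.048. T cell Cxcr6 at 21 dpi was 506 and 557 in Ctrl and 195 and 166 in ADWA11, which did not overlap, and 329 and 604 in Tgfbr2_cKO, which lay on either side of Ctrl.

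Across 51 class-by-library sums of 11 classes, the genes most alike to Cxcl12 by Pearson's r of log2(CPM + 1) were Igfbp4 (r = 0.88), Ogn (r = 0.87) and Foxc1 (r = 0.83). Those most alike to Cxcr6 were Cd8a (r = 0.94), Cd163l1 (r = 0.93) and Ctsw (r = 0.93), those to Ccl5 Spn (r = 0.93), Ly6c2 (r = 0.91) and Gzma (r = 0.91) and those to Cxcr3 Klrc2 (r = 0.96), Cd3e (r = 0.94) and Tbc1d10c (r = 0.93). For Cxcr4 they were Neurl3 (r = 0.89), Samsn1 (r = 0.89) and Lcp1 (r = 0.89), for Ackr3 Ntn4 (r = 0.86), 9530026P05Rik (r = 0.82) and Plat (r = 0.82) and for Cxcl16 Gm19689 (r = 0.82), Cmtm3 (r = 0.81) and Tmem86a (r = 0.78). The sparser Ccl19 gave Hspb1 (r = 0.79), Cxcl1 (r = 0.77) and 1010001N08Rik (r = 0.76), and Ccr7 gave Gpr132 (r = 0.89), Gm20663 (r = 0.88) and Spn (r = 0.87). These sums share libraries and depth, and the correlation within classes was not computed.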

How the data were processed

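Nuclei of dissected photothrombotic lesions were profiled with 10x Genomics 3′ v3.1 reagents in 6 libraries of 2 pooled mice each. The deposited values are whole-number counts of UMIs per gene and barcode, made by the authors with Cell Ranger on mm10, without normalisation and after that program's own selection of barcodes. The file headers give version 7.2.0 and the submitters' processing notes 7.1.0. All 32285 genes were used as deposited, overlapping and duplicated genes included.

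The study's filter was applied within each library by leaving out the lowest and highest 2.5% of nuclei by UMIs and genes and the highest 2.5% by mitochondrial share, and 61917 of 67360 barcodes remained. Nuclei were clustered in R 4.3.3 by Seurat 5.3.0 after SCTransform (package version 0.4.2), taking 3000 variable genes, 30 principal components and a resolution of 0.5, then 0.2 within fibroblasts, 0.25 within myeloid nuclei and 0.5 within T cells. The 9 members and 12 companion genes were left out of the variable genes. A class needed 3 raised markers (found in 5% of its nuclei at 2 times the level elsewhere) and more than any other class. Rules for sub-cluster names, for the dendritic, B cell and plasma cell splits and for setting aside sub-clusters with more markers of another class were set after the clusters had been seen, and 5119 nuclei were set aside. Ctrl at 21 dpi held 2691 of them, 20.6% of its nuclei, against 6.61% in ADWA11 and 4.54% in Tgfbr2_cKO at 21 dpi. Doublets were called by a simulated-neighbour score at a fixed rate that grew with the barcodes of a library (5371 nuclei) and left out only where they were over 50% of a sub-cluster, and free RNA was not removed. A different clustering could give other class boundaries.

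UMIs were summed per class and library as CPM of non-mitochondrial UMIs. With 1 library per group no test was made. Depth sets the counting intervals, exact Poisson for levels, exact conditional binomial for ratios and exact binomial (Clopper-Pearson) for shares, at 95%. A ratio needs 50 nuclei in both libraries and, with 0 UMIs in 1 of them, is a bound at 3 counts, and a level or share of 0 is given with the limit that 3 counts allow. As an exception, ratios at equal sub-cluster shares used sub-clusters of 20 or more nuclei. Shares of nuclei with a UMI were taken after thinning to 2000 UMIs. The 5 comparisons were each perturbation against Ctrl at 7 and 21 dpi and Ctrl at 21 against 7 dpi. Alternatives used edgeR 4.0.16 (TMM scaling only), another normalisation, other filters, each sex, and clustering with the members kept. On simulated counts for fibroblasts of Tgfbr2_cKO against Ctrl at 21 dpi, genes changed by a log2 of -2, -1, 1 and 2 came out at medians of -1.98, -0.99, 1.00 and 2.01. Of their intervals, 91.5% to 96.2% held the true value, and of genes changed by exactly 2-fold, 47.9% of those lowered and 46.8% of those raised came out past 2-fold. The simulated sums were drawn with Poisson error alone, without the spread between nuclei or mice. They therefore check the computation and cannot show how the intervals hold for UMIs that lie in few nuclei. The members, companion genes and marker lists were chosen with earlier results of these data known. The named genes were all members, those companions, of which 1 is not reported here, and the 3 genes most alike to each member.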

Additional observations from a re-analysis of the deposited data

Results flagged for a closer look

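Among the 9 members, 3 differences from Ctrl over whole classes were flagged. They pointed in opposite directions at 7 and 21 dpi, with counting intervals that left out 0 on both days. Companion genes are not in this count. Of these, myeloid Cxcl10 in Tgfbr2_cKO was past 2-fold above Ctrl at 7 dpi and past 2-fold below it at 21 dpi. No difference between the 2 days was tested, since each day has 1 library per group and its own Ctrl library. Myeloid Cxcr4 in Tgfbr2_cKO was -0.61 (95% interval -0.93 to -0.30) relative to Ctrl at 7 dpi and 0.45 (95% interval 0.28 to 0.62) at 21 dpi on the log2 scale. At 7 dpi microglia-like nuclei were 1681 of 2299 myeloid nuclei in Tgfbr2_cKO and 1591 of 4280 in Ctrl, and the part of this make-up was not tested. Myeloid Cxcr4 in ADWA11 was 0.43 (95% interval 0.28 to 0.59) at 7 dpi and -0.30 (95% interval -0.46 to -0.14) at 21 dpi. T cell Ccl5 in ADWA11 was 0.90 (95% interval 0.60 to 1.21) at 7 dpi and -0.33 (95% interval -0.52 to -0.15) at 21 dpi, and the second value was 0.01 without the 5 nuclei of each library richest in Ccl5. In nuclei called female the second value was -1.23 and in those called male 0.18 (95% interval -0.18 to 0.55).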

How the results depend on the processing

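Fibroblast Cxcl12 kept its direction in all 5 comparisons under every alternative but 1. Without the fibroblast sub-clusters of which over 90% of nuclei came from 1 library, an alternative chosen after seeing the data, the log2 ratio of Tgfbr2_cKO to Ctrl at 21 dpi was -0.14 in place of 1.83, that of ADWA11 1.40 and that of Ctrl at 21 against 7 dpi 0.55. This alternative leaves out sub-clusters 6 and 8 together, and neither was left out alone. With sub-cluster shares held equal the ratios were 0.60 for Tgfbr2_cKO and 1.22 for ADWA11 at 21 dpi and 0.83 between the Ctrl times. In nuclei called female they were 0.70 and 1.64 for Tgfbr2_cKO at 7 and 21 dpi, 1.05 and 0.93 for ADWA11 and 0.75 between the Ctrl times, and in nuclei called male 0.048, 1.94, 0.61, 1.77 and 0.28 in the same order. As a mean over nuclei they were 1.67 for Tgfbr2_cKO at 21 dpi, 0.62 and 1.44 for ADWA11 at 7 and 21 dpi and 0.35 between the Ctrl times. Without the 5 nuclei of each library richest in the gene they were 0.23 and 1.76 for Tgfbr2_cKO at 7 and 21 dpi, and with percentiles over pooled libraries 1.75 for Tgfbr2_cKO at 21 dpi. The cause of these shifts was not tested.

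Over all members, 507 of 534 ratios under an alternative kept their sign, and of 123 whose value was 2-fold or more, 121 kept their sign and 104 stayed 2-fold or more in the same direction. The other reversal was Cxcr6 over all nuclei of Tgfbr2_cKO at 7 dpi, -2.29 with every class and 0.20 in non-neural classes. Counts limit the sparse members most, and the ratios of Ccl19 and Ccr7 rest on few UMIs. Groups with under 50 nuclei of a sex gave no ratio. No paired analysis was possible because each group is 1 library without a replicate number.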
